A study of Mus musculus with 6 samples.

Results

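The genes described here encode 10 proteins that shape mitochondria in brown adipose tissue (BAT): the fusion GTPases Mfn1, Mfn2 and Opa1, the inner membrane proteases Oma1 and Yme1l1, the fission factors Dnm1l, Fis1 and Mff, and the cristae organisers Immt and Chchd3. They were chosen by gene symbol, and all 10 were found, on 1 row each, among the 23282 rows of the deposited counts. RNA of BAT was sequenced from 3 wild-type and 3 Letmd1 knockout (KO) male C57BL/6N mice at 5 weeks of age. The KO mice are homozygous for a knockout-first allele derived from 1 ES cell clone, in which a lacZ and neomycin resistance cassette in an intron disrupts Letmd1 in every tissue, so the loss is not confined to brown adipocytes. Libraries were made by the QuantSeq method, in which reads come from the 3′ ends of polyadenylated RNA, so longer transcripts do not gain counts and splice forms are not told apart. The study asked what LETMD1, a mitochondrial protein, does in BAT. The comparison made here is the transcript level of the fusion, fission and cristae genes between the genotypes.

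Mitochondria join and divide. MFN1 and MFN2 tether and fuse the outer membranes of neighbouring mitochondria, and OPA1 fuses the inner membranes and keeps the necks of cristae narrow. OMA1 and YME1L cleave OPA1 at different sites, and OMA1 is known as the protease that acts when the membrane potential is lost. DRP1, the product of Dnm1l, is recruited by MFF and FIS1 to constrict the organelle. MIC60 (Immt) and MIC19 (Chchd3) are core subunits of the MICOS complex, which builds the junctions at the base of cristae. Brown adipocytes hold many mitochondria with densely packed cristae, and Mfn2, Opa1 and Oma1 are each known to matter for their thermogenic function in mice. Cleavage of OPA1 and recruitment of DRP1 take place on proteins and are not read by RNA.

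Libraries held from 6669577 to 14574273 counts. The counts of Letmd1 itself were 5658, 6490 and 5266 in wild-type and 0, 0 and 1 in KO BAT, which matched the labels. The summed level of 7 brown adipocyte markers was between 12724 and 13780.5 CPM (counts divided by the library size after TMM scaling, which aligns the bulk of genes between libraries, times 1000000) in wild-type and between 1876 and 3198 in KO BAT, where Ucp1, the uncoupling protein of brown fat, was at 382 ± 114 against 6328 ± 519 CPM (SD, n = 3 each). Markers of other cells moved with the genotype or with single mice. The summed level of 13 macrophage markers was between 201 and 283 CPM in wild-type and between 1661 and 4038 in KO BAT, and all 13 rose. That of 7 fibroblast markers was between 1345 and 1874 against 3806 to 6550 CPM, and all 7 rose. That of 15 skeletal muscle markers was between 93.2 and 540.1 against 383 to 1394 CPM, with the highest values in wild-type mouse 2 and KO mouse 3. Of these markers 2 rose, and 7 were at 0 in some mouse. The summed levels ranged from 33006 to 38710 against 12061 to 21051 CPM for 6 general adipocyte markers and from 676 to 765 against 460 to 571 CPM for 8 endothelial markers, and overlapped between the genotypes for 5 erythroid genes. Of single markers, 6 of 7 brown adipocyte, 4 of 6 adipocyte and 4 of 8 endothelial ones fell, and none of these rose. Fabp4, at 28020 against 10462 CPM on average, made up most of the adipocyte sum, and Pparg and Cfd overlapped between the genotypes. Among endothelial markers, Pecam1 and Cldn5 had log2 fold changes above 0 (0.029 and 0.71). No macrophage or fibroblast marker was at or under 3 counts in all 3 mice of a genotype. In counts of whole tissue, fewer brown adipocytes and less RNA of a gene per brown adipocyte cannot be told apart. The part of macrophages and fibroblasts in the differences below was not tested.

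**Figure D1:**
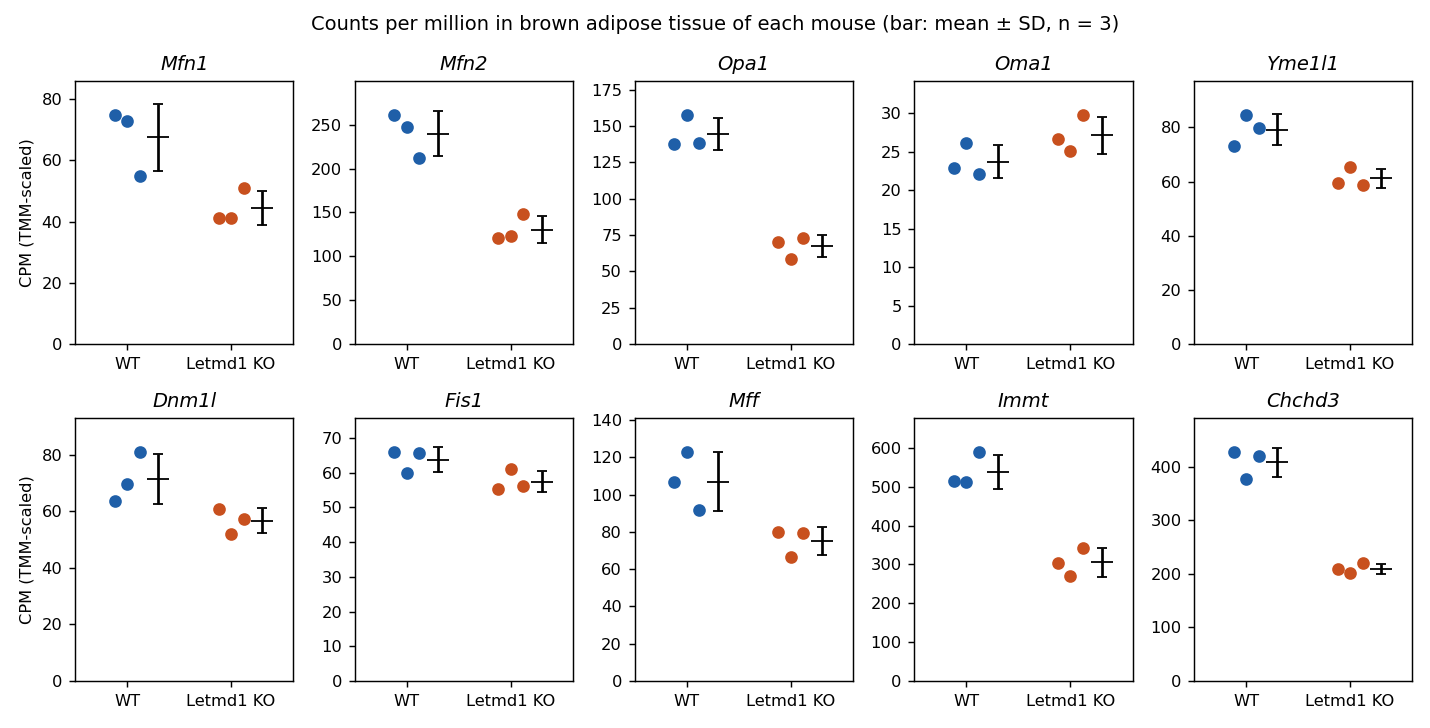
Each point is 1 mouse, the vertical axis is CPM after TMM scaling from 0, and the bars give the mean ± SD of 3 mice (blue, wild type; orange, Letmd1 KO). The KO mice lie below every wild-type mouse for 8 of the 10 genes, and the genotypes overlap for Oma1 and Fis1.

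Of the 10 genes, 7 were lower in Letmd1 KO BAT and none was higher. A gene was called lower or higher where the quasi-likelihood test of edgeR gave p under 0.05 after Benjamini-Hochberg adjustment over 12995 genes, of which 22.3% were lower, 23.7% higher and 46.0% either. Opa1, Chchd3, Mfn2 and Immt changed by -53.3% to -43.3%, Mfn1, Mff and Yme1l1 changed by -34.0% to -22.7%, and Dnm1l, Fis1 and Oma1 did not pass the threshold. The KO mice lay below all wild-type mice for 8 of the 10 genes, against 27.2% of the genes tested, and above them for none, against 30.1%. Over the 10 genes the median log2 fold change was -0.55, and over all genes tested it was 0.033.

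The fusion genes were lower in KO BAT for 3 of 3. Opa1, at chr16:29579334-29654884 on the plus strand (GENCODE positions on GRCm38, as for all genes here), changed most of the 10 genes. It was at 138, 157 and 139 CPM in the wild-type mice and at 70.4, 58.8 and 73.2 CPM in the KO mice. The highest KO mouse thus lay far below the lowest wild-type mouse. The log2 fold change was -1.10 (standard error 0.12, edgeR adjusted p = 0.000103). Opa1 was the only one of the 10 genes past the threshold with a fall of at least 2-fold, a rule met by 8.84% of all genes.

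Mfn2, which also links mitochondria to the endoplasmic reticulum, is encoded at chr4:147873599-147904704 on the minus strand. It was at 261, 247 and 212 CPM in wild-type and at 121, 123 and 148 CPM in KO BAT. The genotypes did not overlap, although wild-type mouse 3 and KO mouse 3 each lay towards the other genotype. On the log2 scale Mfn2 changed by -0.88 (standard error 0.13, edgeR adjusted p = 0.000481). Its paralog Mfn1, at chr3:32529465-32579239 on the plus strand, was at 74.6, 72.8 and 54.8 CPM against 41.2, 41.0 and 50.9 CPM. Here the lowest wild-type and the highest KO mouse, again mouse 3 of each genotype, were close to each other. The log2 fold change of Mfn1 was -0.60 (standard error 0.15, edgeR adjusted p = 0.0109). With scaling by library size alone it was -0.18 and no longer past the threshold (edgeR adjusted p = 0.363).

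The genes of the cristae organisers were lower for 2 of 2. Immt, at chr6:71831331-71877388 on the plus strand, encodes the largest MICOS subunit. It was at 516, 511 and 590 CPM in wild-type and at 303, 270 and 344 CPM in KO BAT, with no overlap. Immt changed by -0.82 on the log2 scale (standard error 0.13, edgeR adjusted p = 0.000725). Chchd3, whose product binds MIC60 from the intermembrane space, is encoded at chr6:32790976-33060260 on the minus strand. It was at 427, 377 and 420 CPM against 209, 201 and 219 CPM, the narrowest range among KO mice for any of the 10 genes relative to its mean (a coefficient of variation of 4.43%). Chchd3 changed by -0.96 on the log2 scale (standard error 0.11, edgeR adjusted p = 0.000101). The calls for Opa1, Mfn2, Immt and Chchd3 held in every fit made here without a fold threshold, which were library size alone, quantile normalization, DESeq2, other filters, the replicate block, the muscle covariate and leaving out each mouse.

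Of the fission genes, 1 of 3 was lower. Mff, at chr1:82724890-82752394 on the plus strand, encodes the main receptor of DRP1 on the outer membrane. It was at 107, 123 and 91.7 CPM in wild-type and at 79.8, 66.6 and 79.2 CPM in KO BAT, so that the genotypes were apart by a small margin. Mff changed by -0.51 on the log2 scale (standard error 0.13, edgeR adjusted p = 0.0127). The call was lost under quantile normalization (-0.33, limma adjusted p = 0.0716), with library size alone (-0.090, edgeR adjusted p = 0.622) and without wild-type mouse 2 (-0.42, edgeR adjusted p = 0.0504). Dnm1l, the GTPase that constricts the organelle, is encoded at chr16:16312230-16358959 on the minus strand. It was at 63.7, 69.8 and 81.0 CPM in wild-type and at 60.8, 52.0 and 57.3 CPM in KO BAT. Every KO mouse was below every wild-type mouse, but the log2 fold change of -0.33 (standard error 0.13) missed the threshold (edgeR adjusted p = 0.0553), with a 95% interval from -0.62 to -0.049. It passed without wild-type mouse 1 (-0.42, edgeR adjusted p = 0.0432), and with library size alone its sign was reversed (0.090). Fis1, at chr5:136953275-136966234 on the plus strand, encodes an outer membrane adaptor. It was at 66.0, 59.8 and 65.7 CPM in wild-type and at 55.3, 61.0 and 56.0 CPM in KO BAT, where KO mouse 2 lay within the wild-type range. Its log2 fold change was -0.15, with a 95% interval from -0.39 to 0.089 (edgeR adjusted p = 0.274) and 0.27 with library size alone.

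Of the proteases that cleave OPA1, Yme1l1 was lower and Oma1 did not pass the threshold. Yme1l1, at chr2:23156369-23199260 on the plus strand, was at 73.1, 84.4 and 79.7 CPM in wild-type and at 59.5, 65.2 and 58.8 CPM in KO BAT, with no overlap. Yme1l1 changed by -0.37 on the log2 scale (standard error 0.11, edgeR adjusted p = 0.0201). The call was lost with the muscle covariate, under quantile normalization, and without wild-type mouse 2, KO mouse 1 or KO mouse 3 (log2 fold changes between -0.44 and -0.23), and the sign was reversed with library size alone (0.048). Oma1, at chr4:103313812-103371868 on the plus strand, had the lowest level of the 10 genes, between 169 and 505 counts per mouse. It was at 22.9, 26.1 and 22.0 CPM in wild-type and at 26.6, 25.01 and 29.7 CPM in KO BAT. Only KO mouse 2 lay within the wild-type range, and Oma1 was the only one of the 10 genes with a log2 fold change above 0 (0.20, standard error 0.14, 95% interval from -0.11 to 0.51, edgeR adjusted p = 0.272). With library size alone it was 0.62 and past the threshold (edgeR adjusted p = 0.00627), where the median over all genes was itself 0.45.

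**Figure D2:**
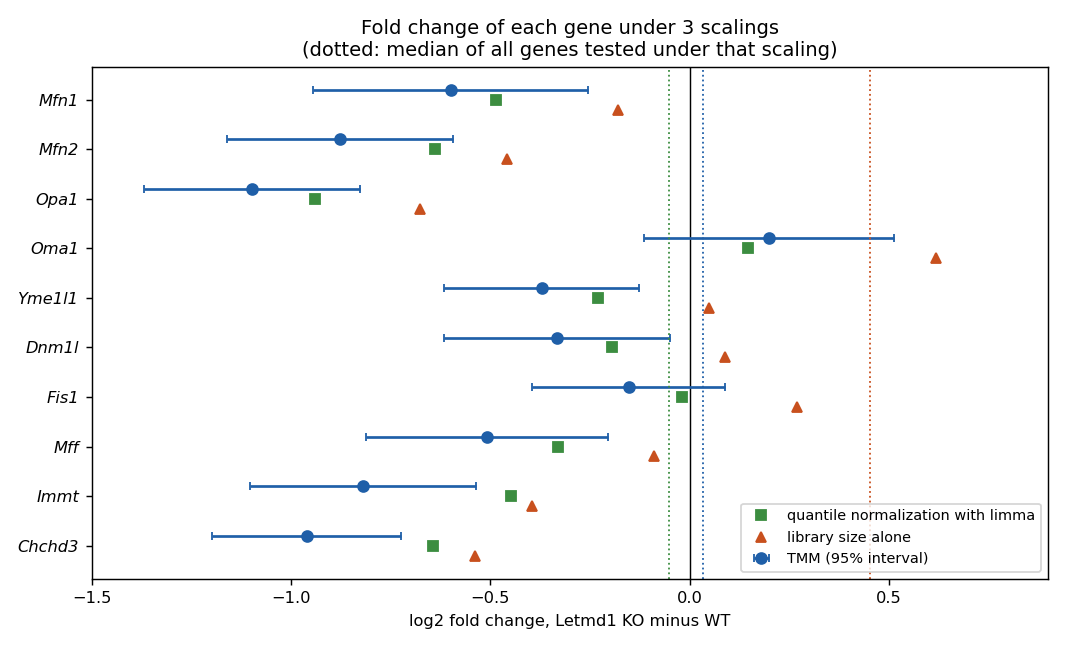
The horizontal axis is the log2 fold change of Letmd1 KO over wild-type BAT for each of the 10 genes after TMM scaling (circles, with 95% intervals), quantile normalization (squares) and scaling by library size alone (triangles), and dotted lines mark the median of all genes under each. Opa1, Mfn2, Immt, Chchd3, Mfn1 and Mff lie below 0 under all 3, and Oma1 lies to the right of the dotted line of the same colour under all 3.

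The TMM factors were between 0.852 and 0.886 in wild-type and between 1.13 and 1.17 in KO mice. Using library size alone moved the median over all genes from 0.033 to 0.45 and left 4 of the 10 genes lower (Opa1, Mfn2, Immt and Chchd3) and 1 higher (Oma1), against 10.5% lower and 45.4% higher among all genes tested. Under quantile normalization 5 of the 10 were lower (those 4 and Mfn1) and 0 higher by limma, against 23.7% and 20.9% of all genes. Relative to the median of all genes, 9 of the 10 genes lay lower with TMM as well as library size alone, and quantile normalization left 8 lower.

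A ratio of 2 genes within the same mouse does not depend on the scaling of libraries, and was compared for 6 pairs by two-sided exact permutation tests. With 3 mice against 3 the smallest p they can give is 0.1, so no pair could pass 0.05, and the smallest value adjusted over the 6 pairs was 0.15. The share of pairs of all genes that were apart between the genotypes was not counted. Of single genes after TMM scaling, 27.2% had every KO mouse below and 30.1% every KO mouse above the wild-type mice. The Opa1 to Dnm1l ratio, an inner membrane fusion gene over the fission GTPase, was 2.16, 2.26 and 1.71 in wild-type and 1.16, 1.13 and 1.28 in KO mice. It was lower in every KO mouse, with a difference of -0.77 on the log2 scale (exact permutation p = 0.1). The Oma1 to Yme1l1 ratio moved the other way, from 0.313, 0.309 and 0.277 in wild-type to 0.447, 0.383 and 0.505 in KO mice. It was higher in every KO mouse, by 0.57 on the log2 scale or 1.48-fold (exact permutation p = 0.1).

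The Mfn2 to Mfn1 ratio was 3.49, 3.39 and 3.87 in wild-type and 2.93, 3 and 2.90 in KO mice, so Mfn2 was lower relative to its paralog in every KO mouse (difference -0.28 on the log2 scale, exact permutation p = 0.1). The Opa1 to Immt ratio was 0.267, 0.308 and 0.235 against 0.233, 0.218 and 0.213, where the groups were barely apart (difference -0.28, exact permutation p = 0.1). The Mff to Fis1 and Immt to Chchd3 ratios overlapped between the genotypes, with differences of -0.35 and 0.14 on the log2 scale (exact permutation p = 0.3 for each). For Immt to Chchd3 the 3 wild-type ratios were between 1.21 and 1.40 and the KO ratios between 1.35 and 1.57.

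**Figure D3:**
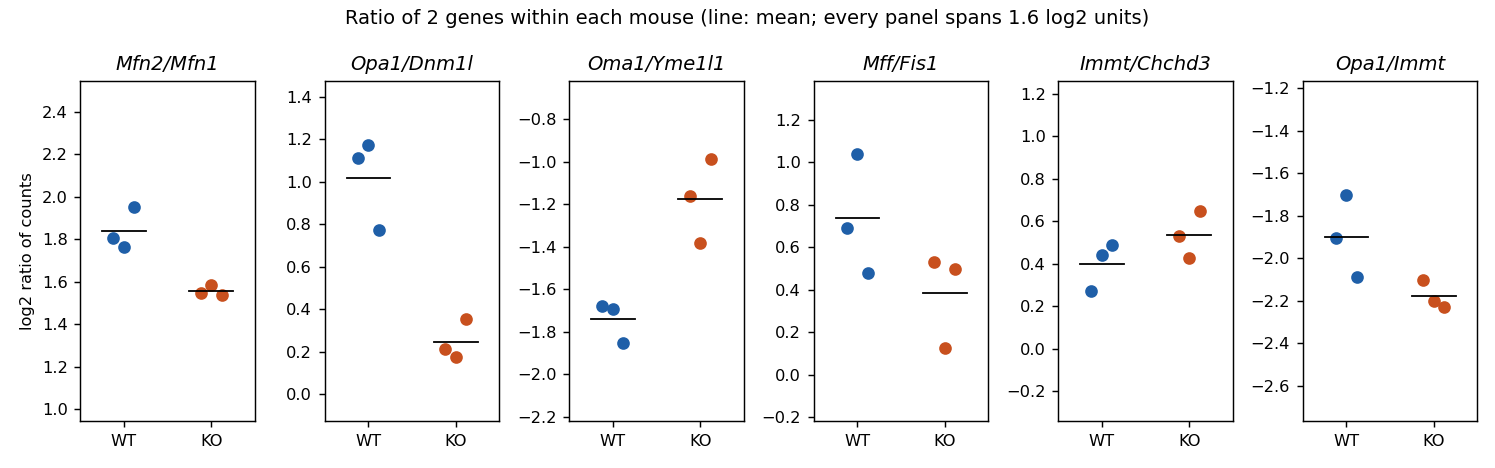
Each point is the log2 ratio of the counts of 2 genes in 1 mouse (blue, wild type; orange, Letmd1 KO), the lines are means of 3 mice, and every panel spans the same height. The genotypes are apart for Opa1/Dnm1l, Oma1/Yme1l1, Mfn2/Mfn1 and Opa1/Immt, and overlap for Mff/Fis1 and Immt/Chchd3. The share of pairs of all genes that are apart was not counted.

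Each gene was also set against Cs in the same mouse. Cs encodes citrate synthase, an enzyme of the citrate cycle that is customarily used to gauge mitochondrial content. Cs itself was at 1609 ± 75.7 CPM in wild-type and 1224 ± 214 CPM in KO BAT (SD, n = 3 each), with a log2 fold change of -0.39 that missed the threshold (edgeR adjusted p = 0.0563). It was past the threshold with DESeq2 (-0.41, adjusted p = 0.0175) and without KO mouse 3 (-0.53, edgeR adjusted p = 0.0143). Its direction depends on the processing, since it was 0.43 and past the threshold under quantile normalization (limma adjusted p = 0.0421) and 0.027 with library size alone. Relative to Cs, Opa1, Chchd3, Mfn2 and Immt were lower in every KO mouse, with differences of -0.69, -0.55, -0.47 and -0.42 on the log2 scale (exact permutation p = 0.1 for each). Oma1 was higher relative to Cs in every KO mouse, by 0.60 (exact permutation p = 0.1). Its ratio to Cs was between 0.0139 and 0.0154 in wild-type and between 0.0206 and 0.0246 in KO mice. With Cs at -0.39 and the median over all genes at 0.033, a gene that did not change also rises relative to Cs. How many of all genes were apart on this ratio was not counted. The other 5 of the 10 genes overlapped, with differences between -0.19 for Mfn1 and 0.26 for Fis1. These moved with single mice, since Fis1 was at 0.086 without KO mouse 2, Mfn1 at -0.081 without wild-type mouse 1, and Yme1l1 at -0.13 without KO mouse 2 against 0.039 with all mice. The smallest value adjusted over the 10 ratios was 0.2. Tomm20, an import receptor of the outer membrane, was itself lower in KO BAT (log2 fold change -0.36, edgeR adjusted p = 0.0361). Ratios to Tomm20 are thus also raised by its own fall. With Tomm20 in place of Cs, Opa1, Chchd3, Mfn2 and Oma1 remained apart between the genotypes, and Immt overlapped (difference -0.46, exact permutation p = 0.2).

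The order of mean levels differed in places between the genotypes. In wild-type BAT the order was Immt (539 CPM on average), Chchd3 (408), Mfn2 (240), Opa1 (145), Mff (107), Yme1l1 (79.0), Dnm1l (71.5), Mfn1 (67.4), Fis1 (63.8) and Oma1 (23.7). The ranges of neighbouring genes overlapped only from Yme1l1 to Fis1. In KO BAT Mff came before Opa1, and Fis1 before Dnm1l and Mfn1. There the ranges of neighbours overlapped from Mff through Opa1, Yme1l1 and Fis1 to Dnm1l. The efficiency of 3′ priming differs between transcripts and was not measured, so this order is one of counts.

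Single mice also differed across the set. KO mouse 2 was the lowest of the KO mice for 7 of the 10 genes, and it had the highest summed levels of macrophage and fibroblast markers. KO mouse 3 was the highest for 6 (Mfn1, Mfn2, Opa1, Oma1, Immt and Chchd3) and had the highest level of muscle markers. How often each mouse was extreme over all genes was not counted, and a link to the markers of single mice was not tested. With the muscle level of each mouse as a covariate, 6 of the 10 genes were lower by edgeR (Opa1, Mfn2, Mfn1, Mff, Immt and Chchd3) and none was higher, against 13.7% lower and 14.0% higher among all genes tested in that fit. The log2 fold change of Oma1 was then 0.0049. The muscle level, a mean log2 CPM, was -0.19, 4.42 and -0.19 in wild-type and 4.37, 4.03 and 5.92 in KO mice. Only wild-type mouse 2 lay among the KO values, so this fit separates genotype and muscle level poorly. Without KO mouse 3, the log2 fold change was -1.16 for Opa1, -0.98 for Mfn2, -0.91 for Immt and -0.99 for Chchd3, and without KO mouse 2 it was between -1.01 and -0.74 for these genes.

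Promoter sequence was read for all 10 genes from RefSeq on GRCm38.p6, from 250 bases before to 50 after each listed start (15 promoters). The motif of nuclear respiratory factor 1, a regulator of many mitochondrial genes, was searched on both strands as GCGCA and GCGC with any 1 base between them, and is shown because it was the only one of 4 motifs found in these windows. It was present for 3 of the 10 genes, against 5.19% of 27025 genes with a promoter of this length. Those 27025 were not limited to genes with counts in BAT, so the 2 shares come from unlike sets. The capitals mark the match, in 30 bases on the strand of the gene, at chr16:29579265-29579294 for Opa1, chr6:71831311-71831340 for Immt and chr4:103313813-103313842 for Oma1.
Opa1: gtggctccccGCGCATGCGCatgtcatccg
Immt: ggaggaggcgGCGCGTGCGCagtggtgccg
Oma1: ggaaaggtgtGCGCCTGCGCggagccggct
The genes that hold a match had log2 fold changes of -1.10 (Opa1), -0.82 (Immt) and 0.20 (Oma1), the last not past the threshold. Whether a match goes with the change was not tested. The motif of oestrogen-related receptors (TCAAGGTCA), the cyclic AMP response element (TGACGTCA) and the element bound by C/EBP and ATF4 dimers (TGATGNAAN) were in none of the 15 windows, and in 0.423%, 1.79% and 3.95% of all promoters.

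The wider machinery was followed in 42 further genes, of which 41 were tested and Gdap1 was not, for low counts. Of these, 29 were lower and 1 was higher in KO BAT (edgeR, against 22.3% and 23.7% of all genes), with a median log2 fold change of -0.62. With library size alone 16 fell and 6 rose, against 10.5% and 45.4% of all genes. Quantile normalization gave 28 and 1, against 23.7% and 20.9%. The shares for TMM and for library size alone also stand beside the counts per list below.

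Among the other subunits of MICOS and of the bridge it forms with the outer membrane, 10 of 12 were lower, with 6 lower and 1 higher with library size alone. Apool, which encodes the cardiolipin-binding subunit MIC27, fell most, from 43.2 ± 4.56 to 11.8 ± 1.77 CPM (SD, n = 3 each, log2 fold change -1.87, edgeR adjusted p = 2.72e-05). The related Apoo (MIC26) fell by 1.33 on the log2 scale. Minos1, now named Micos10, whose product MIC10 bends the membrane at cristae junctions, went from 534 ± 3.59 to 230 ± 13.5 CPM (log2 fold change -1.21). 2410015M20Rik, now named Micos13, fell by 1.12, and Chchd6 (MIC25) by 0.76. Samm50, the outer membrane partner that inserts beta-barrel proteins, went from 579 ± 27.4 to 290 ± 21.4 CPM (log2 fold change -0.996). All 5 of these subunits and Samm50 were lower under each of the 3 scalings. Tmem11 (log2 fold change 0.045) and Armc1 (-0.14) did not pass the threshold, and Tmem11 was higher with library size alone.

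Among inner membrane proteases and scaffolds, 6 of 8 were lower, with 4 lower and 1 higher (Parl) with library size alone. Immp2l, of the inner membrane peptidase, fell most (log2 fold change -1.74, standard error 0.18, edgeR adjusted p = 8.28e-05). Afg3l2, a matrix-facing relative of Yme1l1, fell by 0.88, and the prohibitins Phb and Phb2, which form ring-shaped scaffolds, by 0.90 and 0.82. Parl, a rhomboid protease, had a log2 fold change of -0.057 (edgeR adjusted p = 0.67), which was above 0 in both other scalings.

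Among adaptors and regulators of fission, 8 of 11 were lower, with 4 lower and 2 higher with library size alone. Mtfp1, an inner membrane protein that promotes fission, fell most, from 67.8 ± 4.98 to 21.2 ± 5.64 CPM (SD, n = 3 each, log2 fold change -1.67, edgeR adjusted p = 0.000124). Mief2, a DRP1 receptor, fell from 32.7 to 10.8 CPM, and its paralog Mief1 fell by 0.45 on the log2 scale. The call for Mief1 was lost with library size alone, with the muscle covariate and in 5 of the 6 fits that left out a mouse, all but the one without wild-type mouse 3. March5, now named Marchf5, a ubiquitin ligase of the outer membrane, fell by 0.94. Mtfr2, which promotes fission in cultured cells, was highest by fold (1.59, standard error 0.65) but rested on 1 to 17 counts per mouse and did not pass the threshold (edgeR adjusted p = 0.0715). It passed with library size alone and with the muscle covariate.

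Among regulators of fusion, 3 of 6 were lower, with 1 lower and 1 higher (Usp30) with library size alone. Fam73b, now named Miga2, an outer membrane protein that promotes fusion and ties mitochondria to lipid droplets, went from 107 ± 0.479 to 30.1 ± 2.48 CPM (SD, n = 3 each, log2 fold change -1.83, edgeR adjusted p = 5.88e-06). Its paralog Fam73a, now Miga1, had between 22 and 61 counts per mouse and a log2 fold change of 0.070 that did not pass the threshold (edgeR adjusted p = 0.877). Usp30, an outer membrane deubiquitinase, had 0.45 (edgeR adjusted p = 0.0645).

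The adaptors that carry mitochondria along microtubules gave the only gene of the 41 past the threshold upwards. Rhot1 (MIRO1) was at 88.4 ± 9.37 CPM in wild-type and 123 ± 5.27 in KO BAT (SD, n = 3 each, log2 fold change 0.48, edgeR adjusted p = 0.00684), and was higher under each of the 3 scalings. With the muscle covariate it was 0.33 and no longer past the threshold (edgeR adjusted p = 0.174). Its paralog Rhot2 (MIRO2) went from 81.0 ± 4.90 to 35.8 ± 5.09 CPM (log2 fold change -1.17, edgeR adjusted p = 0.000117). Trak1 fell by 0.57, with the call lost with library size alone and with the muscle covariate, and Trak2 had a log2 fold change of -0.057.

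**Figure D4:**
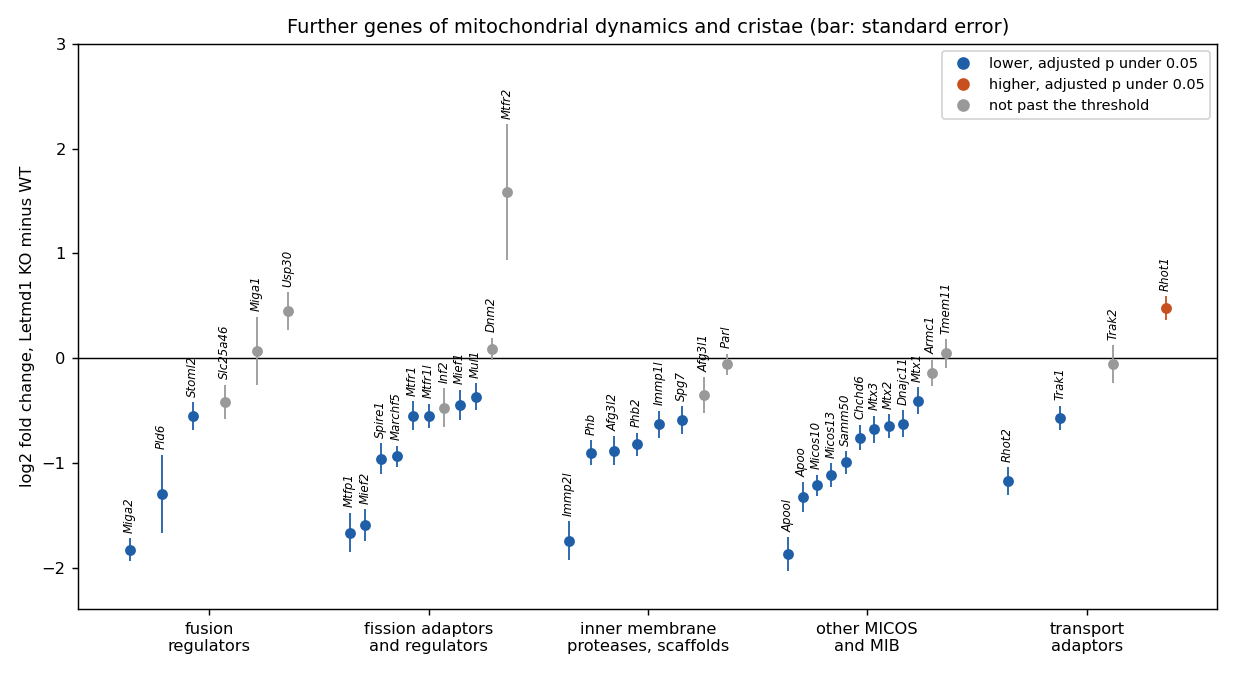
Each point is the log2 fold change of Letmd1 KO over wild-type BAT for 1 of 41 further genes in 5 lists, with its standard error as a bar (blue, lower; orange, higher; grey, not past the threshold). Apool, Miga2, Immp2l, Mtfp1 and Mief2 lie lowest, and Rhot1 is the only orange point.

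No member shares annotated exon bases with another tested gene. Dnm1l, Mff and Immt share between 185 and 243 exon bases with a gene on the other strand, at least 27310 bases from the end that QuantSeq reads. No transcript of another gene matched the last 500 bases of a member's coding transcripts at 95% identity over 75 bases.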

How the data were processed

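BAT RNA of 3 wild-type and 3 Letmd1 KO mice was sequenced as QuantSeq 3′ mRNA libraries. The authors aligned the reads with Bowtie2 and used Bedtools to count them, keeping reads with several alignments. The deposited values are raw counts, in whole numbers and not normalized. The submitters' processing notes name mm10, the build that GENCODE vM21 (GRCm38) annotates. The annotation used for counting, the use of strand and tool versions are not given in the sources used here. The quantile normalization named in the methods is not in these counts and served as an alternative. Samples were grouped by the genotype in their labels, which do not say whether mice were littermates.

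The analysis ran in R 4.3.3, with the packages edgeR 4.0.16, DESeq2 1.42.0 and limma 3.58.1. The main test was the quasi-likelihood test of edgeR with TMM scaling after the package's default filter (minimum count 10, minimum total 15), with Benjamini-Hochberg adjustment over 12995 rows and a threshold of 0.05. Standard errors and 95% intervals came from this fit. The steps were tested on simulated data in which few genes changed, in both directions, so the simulation does not bear on the choice of scaling. A floor of 3 counts was between 0.176 and 0.397 CPM and covers counting error only. Mice of a genotype differed by more than sampling noise, at 11.5 to 34.0 chi-square units for each degree of freedom. Mice with the same replicate number gave no sign of pairing.

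The members, lists and pairs of genes were chosen with earlier results of these data known. Named are the 10 members, Letmd1, Ucp1, Cs and Tomm20, the genes with the most negative and most positive change in each list, and all of a list with fewer than 6 tested genes. The other subunits of MICOS, Samm50, Armc1, Afg3l2, the prohibitins, Mief1, Mief2, March5, Fam73a and Gdap1 were added after their values were seen. Alternatives were library size alone, quantile normalization with limma, DESeq2, no filter, a mean of at least 50 counts, the replicate number as a block, the mean log2 level (prior count 2) of muscle markers as a covariate, a 2-fold threshold, a pseudocount of 0.5, another reference gene and leaving out each mouse. Protein sequences were not used here.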

Additional observations from a re-analysis of the deposited data

How the results depend on the processing

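The number of members lower in KO BAT was 7, and 5 to 8 in fits that lacked 1 mouse. It was 4 with library size alone, where 1 member was higher, and 1 when a change of at least 2-fold was also asked for, a rule that removes genes by construction. All genes past the threshold numbered 5978, between 4842 and 5868 with a mouse left out, 3048 with the 2-fold rule and 3601 with the muscle covariate. That covariate spends 1 degree of freedom and follows the genotype in all but wild-type mouse 2. Under library size alone, 1368 genes were lower and 5899 higher, so 81.2% of calls were higher against 51.6% with TMM.

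With library size alone the log2 fold change reversed to 0.0475 for Yme1l1, 0.0897 for Dnm1l, 0.27 for Fis1, 0.0273 for Cs, 0.0563 for Tomm20, 0.36 for Parl and 0.36 for Trak2, each by close to the shift in the median of all genes. Under quantile normalization it reversed to 0.43 for Cs, 0.0965 for Parl and 0.0528 for Trak2, and the cause was not tested. Leaving out 1 mouse gave Tmem11 values from -0.0636 (wild-type mouse 3) to 0.187, with -0.0133 without wild-type mouse 2. It gave Trak2 values from -0.23 to 0.0951 (KO mouse 2), with 0.0558 without wild-type mouse 2. The Yme1l1 ratio was -0.0050 on the log2 scale relative to Tomm20 and 0.0392 relative to Cs.

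The within-mouse ratios of the 6 pairs kept their sign under a pseudocount of 0.5 and with each mouse left out, where Mff to Fis1 ranged from -0.48 to -0.20, Immt to Chchd3 from 0.072 to 0.19 and Opa1 to Immt from -0.37 to -0.18. Relative to Cs, leaving out 1 mouse gave -0.32 to -0.081 for Mfn1, -0.13 to 0.19 for Yme1l1, 0.013 to 0.20 for Dnm1l, 0.086 to 0.40 for Fis1 and -0.19 to -0.0098 for Mff. With the replicate number as a block, 7 members were lower, as without it, and 5599 genes passed the threshold. Deviations of mice with the same number correlated at 0.069, -0.11 and -0.087, which gave no sign of pairing. Whether mice shared a litter or a batch cannot be read from these values. With 3 mice per genotype the precision is limited by their number, and for Oma1 and the genes with the fewest reads also by depth.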
